A study of Rattus norvegicus with 172 samples.

Results

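Furan, a volatile heterocyclic compound formed in heated food, was given to male Fischer 344 rats for 90 days, and liver RNA was sequenced in 38 of the 70 rats of the series: the whole furan experiment, with all its doses. The question was how each gene moved over the dose range: at the highest dose only, in steps that followed the dose, or already at the low doses. The groups were 8 control rats on a diet labelled control 0, 8 rats at 0.03, 8 at 0.12, 7 at 0.5 and 7 at 2.0 mg furan per kg body weight per day. The labels give each dose as a lettered diet, and no age is given in the labels. The remaining rats belong to a 3-methylfuran experiment with its own controls and were not used.

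By the labels each rat was 1 library, read in 2 sequencing runs that were summed, so that the rat was taken as the replicate. MB041 and MB042, both at 0.12 mg/kg, nearly matched in several genes for which their group scattered. All counts of rats at this dose take them as 2 rats, and whether they are separate livers was not tested. The libraries held 11.4 to 27.7 M counted reads each (median 16.3 M), and 12727 of 32883 listed genes had enough counts to be tested. The 7 markers of hepatocytes together held 179000 to 205000 CPM (counts scaled to a common library size) in controls. No label says how rats were housed, killed or ordered in the library preparation. The p-values set differences between groups against the spread between rats as sampled. Handling that differed between groups cannot be told apart from dose. Rats MD063 and MD069 at 0.5 mg/kg and rats ME086, ME089 and ME092 at 2.0 mg/kg stood apart from the others of their groups in the values given rat by rat, and the counts of genes and the most affected fold changes are also given without them. A gene is written as rose or fell where its adjusted p was under 0.05.

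Furan is oxidised in hepatocytes by the cytochrome P450 enzyme CYP2E1 to a reactive dialdehyde that binds thiols and amines. The transcription factor NRF2 (gene Nfe2l2) answers such electrophiles by switching on glutathione and detoxifying enzymes, p53 answers DNA damage, and dividing hepatocytes and bile duct-like cells replace damaged ones. A dose-response can be flat up to a high dose, proportional to dose, or saturating, and liver genes that follow the daily clock, feeding and glucocorticoid hormones vary between animals without any compound.

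The promoters of 4 genes show the letters that regulators of these pathways are known to bind. Each window runs from 250 bases before to 50 bases after the start given by RefSeq on build GRCr8, 300 bases in all, written along the gene's own strand. Gstp1, the placental form of glutathione S-transferase, and Gpx2, a selenium-dependent glutathione peroxidase, rose at 2.0 mg/kg alone, and capitals mark the antioxidant response element core TGACNNNGC. The match in Gpx2 is on the opposite strand, so its capitals read as the reverse complement. The match in Gstp1 also holds TGACTCA, the letters bound by AP-1.
Gstp1 (chr1:210769656-210769955, minus strand): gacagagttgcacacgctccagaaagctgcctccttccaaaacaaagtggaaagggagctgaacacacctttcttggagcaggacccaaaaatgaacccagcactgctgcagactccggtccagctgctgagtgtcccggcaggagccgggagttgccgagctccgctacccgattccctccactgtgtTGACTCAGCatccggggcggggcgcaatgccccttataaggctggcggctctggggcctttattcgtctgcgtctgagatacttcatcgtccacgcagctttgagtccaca
Gpx2 (chr6:101229984-101230283, minus strand): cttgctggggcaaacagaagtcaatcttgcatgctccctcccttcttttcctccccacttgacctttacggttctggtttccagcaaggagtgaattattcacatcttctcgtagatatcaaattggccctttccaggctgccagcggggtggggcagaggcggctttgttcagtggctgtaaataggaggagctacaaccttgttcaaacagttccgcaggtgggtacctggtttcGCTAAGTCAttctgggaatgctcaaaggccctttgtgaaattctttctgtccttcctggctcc
Mki67, the proliferation antigen gene, also rose at 2.0 mg/kg alone, and capitals mark 2 copies of TTTGAA, the core of the cell cycle homology region bound by the DREAM complex.
Mki67 (chr1:199952544-199952843, minus strand): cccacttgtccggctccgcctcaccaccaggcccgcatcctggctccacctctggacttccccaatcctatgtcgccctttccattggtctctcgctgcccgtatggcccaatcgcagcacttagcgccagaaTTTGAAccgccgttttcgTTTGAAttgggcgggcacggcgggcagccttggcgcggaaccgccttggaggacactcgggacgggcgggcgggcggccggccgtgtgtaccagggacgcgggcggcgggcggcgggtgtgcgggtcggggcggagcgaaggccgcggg
Hsp90b1, the chaperone GRP94 of the endoplasmic reticulum, was called higher at 0.12 mg/kg and had returned at 2.0, and capitals mark 2 copies of the ER stress response element, CCAAT and CCACG with 9 bases between them, 1 on each strand.
Hsp90b1 (chr7:23012244-23012543, minus strand): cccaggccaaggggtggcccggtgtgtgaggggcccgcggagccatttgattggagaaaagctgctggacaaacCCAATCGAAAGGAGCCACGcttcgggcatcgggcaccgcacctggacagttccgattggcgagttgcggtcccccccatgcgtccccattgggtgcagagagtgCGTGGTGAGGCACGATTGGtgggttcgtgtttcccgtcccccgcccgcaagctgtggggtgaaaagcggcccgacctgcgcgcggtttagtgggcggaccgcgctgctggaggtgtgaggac

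The number of genes that differed from control did not grow evenly with dose. At 0.03 mg/kg 9 genes were called (0.0707% of those tested; 1162 genes had an unadjusted p under 0.05), at 0.12 mg/kg 247 (1.94%; 130 higher, 1.02%, and 117 lower, 0.919%), at 0.5 mg/kg 402 (3.16%; 191 higher, 1.5%, and 211 lower, 1.66%) and at 2.0 mg/kg 5923 (46.5%). The mean of the 0.03 and 0.12 groups minus control called 172 genes (1.35%), 91 higher (0.715%) and 81 lower (0.636%). At 2.0 mg/kg 3054 genes rose (24% of those tested) and 2869 fell (22.5%). The authors' deposited table called 46, 369, 561 and 6356 genes at the same doses. All of these comparisons share the 8 control rats.

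Between neighbouring doses, which leaves the controls out, the picture was steeper. Between 0.12 and 0.03 mg/kg 9 genes were called (0.0707%), 1 higher (0.00786%) and 8 lower (0.0629%) at 0.12, and 864 had an unadjusted p under 0.05 (6.79%). Between 0.5 and 0.12 mg/kg edgeR, DESeq2 and limma voom each called 0 genes, while 322 genes had an unadjusted p under 0.05 in edgeR (2.53%). Between 2.0 and 0.5 mg/kg 4093 genes were called (32.2%), 1991 higher (15.6%) and 2102 lower (16.5%) at 2.0. The wider comparison of 0.5 with 0.03 mg/kg called 127 genes (0.998%), 40 higher (0.314%) and 87 lower (0.684%) at 0.5.

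The small counts rested on single rats. The count of 9 at 0.03 mg/kg moved by over 1.5 times when any of 29 of the 38 rats was left out, and ranged from 0 to 62 (62 without MA025). The count at 0.12 mg/kg was 105 without MB044, 133 without MB050, 147 without MB041, 163 without MB042 or the control MC003, and 379 without MB045. MB041 and MB042, whose values nearly matched in several genes, were not left out together. The interferon response gene Mx2 was 59.3 and 63.9 CPM in them and 23.9 to 33.1 in the other rats at 0.12 mg/kg. The hepcidin gene Hamp was 860 and 833 CPM, against 266 to 607. Other genes were less close, such as Mki67 with 2.4 and 4.31 CPM. Leaving out single rats keeps the other of the pair in the group, so the weight of the pair was not tested. The count at 0.5 mg/kg was 261 without MD063 and 265 without MD071. The count between 0.12 and 0.03 mg/kg ranged from 0 to 43 (43 without MB052) and moved that much for 15 rats. The 172 genes of the mean low dose were 289 without MA025, and 114, 109 and 108 without MA029, MA030 and MB044. They were 81, 80, 84 and 70 without the controls MC003, MC007, MC008 and MC012. At 2.0 mg/kg the count stayed between 5352 and 6292 whichever rat was left out.

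**Figure D1:**
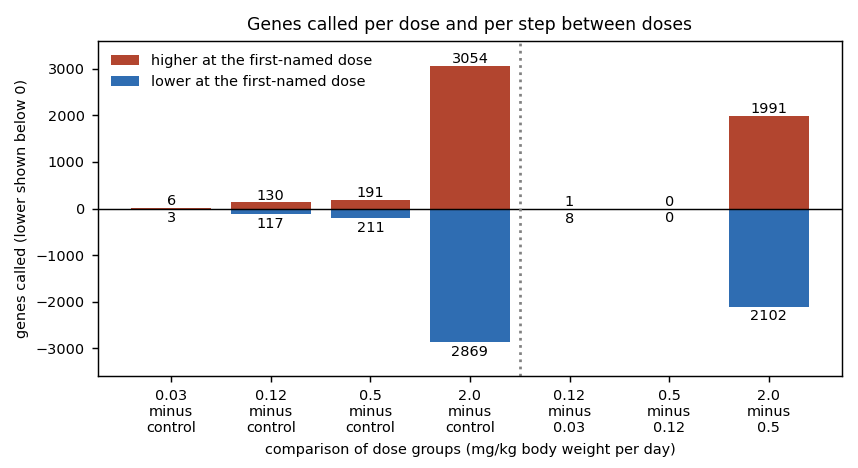
Bars give the genes called at an adjusted p under 0.05 in edgeR, higher above 0 and lower below 0, for each dose against control (left of the dotted line) and for each step between neighbouring doses (right). The bars reach 3054 and 2869 genes at 2.0 mg/kg, and no gene was called between 0.5 and 0.12 mg/kg.

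A test over the 4 doses together called 5689 genes (44.7% of 12727), and these were sorted by which single comparisons they passed. The top dose only class took genes called at 2.0 mg/kg and between 2.0 and 0.5 but at no lower dose, and it held 3386 genes (26.6% of those tested), 1696 higher and 1690 lower (13.3% each). The graded class was called at 0.5 and further in the same direction at 2.0, with 95 genes (0.746%), 32 higher (0.251%) and 63 lower (0.495%). A further 120 genes (0.943%) changed by 0.5 mg/kg and did not differ detectably between 0.5 and 2.0, 44 higher (0.346%) and 76 lower (0.597%). The low dose classes held 127 genes that were called at 0.03 or 0.12 and levelled off (0.998%) and 69 that were called there and returned by 2.0 (0.542%). Of those that levelled off 62 were higher (0.487%) and 65 lower (0.511%), and of those that returned 51 were higher (0.401%) and 18 lower (0.141%). The rest were 31 genes called at 0.5 alone (0.244%; 22 higher, 0.173%, and 9 lower, 0.0707%), 1 gene that reversed (0.00786%) and 1860 that met no rule (14.6%; 994 higher, 7.81%, and 866 lower, 6.8%). These counts are the result of the sorting rule, and membership is no further evidence of a gene's change.

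The low dose classes depended on single rats as the calls did. Genes that levelled off numbered 64 without MB044, 69 without MB050, 79 without MB041 and 84 without the control MC003. Genes that returned numbered 28 without MB044, 41 without MB050, 43 without MC003 or MC012, 44 without MB041 and 114 without MB045. The graded class held 46 genes without MD063, 58 without MC012, 60 without MD072, 63 without MC003 and 168 without ME086. Genes called at 0.5 alone numbered 66, 54 and 47 without MB044, MD069 and MB050. They numbered 12, 14, 16, 18 and 20 without MD071, MD064, MD067, MD063 and MD072. The class that changed by 0.5 held 73 without MD063, 75 without MD071 and 79 without MD067.

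**Figure D2:**
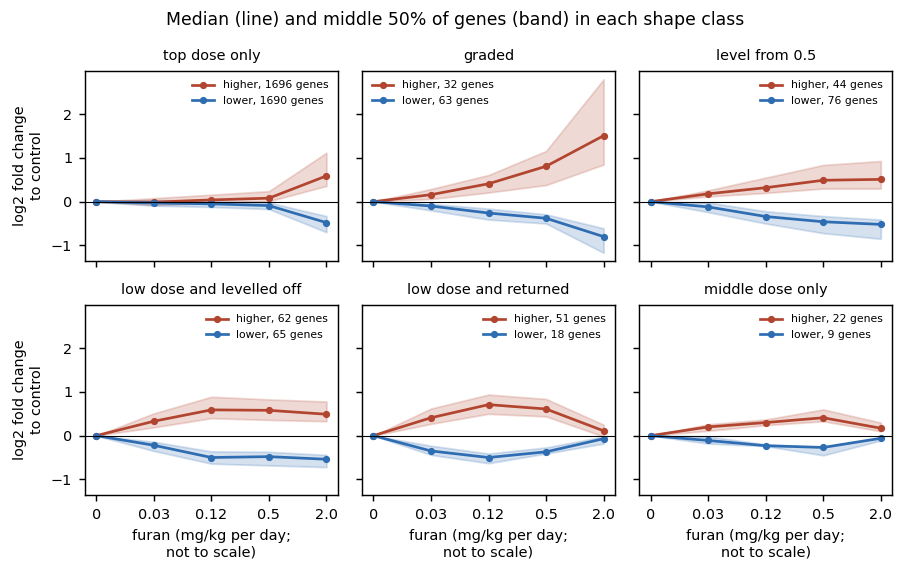
Lines give the median log2 fold change to control over the genes of a shape class at each dose and bands the middle 50% of genes, red for higher and blue for lower (doses not to scale). The classes were chosen from the same comparisons, so the shapes are a description: top dose only genes stay near 0 up to 0.5 mg/kg, and returned genes are back near 0 at 2.0.

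The top dose only class was led by genes of electrophile handling, amino acid metabolism and matrix. Gstp1 had medians of 14.1 CPM in controls, 12 at 0.03, 15 at 0.12, 14.5 at 0.5 and 154 at 2.0 mg/kg. At 2.0 mg/kg its 7 rats ran from 20.9 to 198 CPM, against 7.29 to 17.4 in controls. The groups did not overlap, but ME086 had 20.9 CPM where its group mates had at least 118, and MD063 (24.8), MD069 (31.9) and MD072 (23.4) at 0.5 mg/kg also lay above every control. So did 3 of 8 rats at 0.12 mg/kg, MB041 (19.5), MB045 (19.7) and MB046 (18.2). The log2 fold change was 3.46 ± 0.29 at 2.0 mg/kg (SE; adjusted p = 5.33e-11) and 0.53 ± 0.29 at 0.5 (adjusted p = 0.356).

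Phgdh, the first enzyme of serine synthesis, ran from 30.5 to 45.1 CPM at 2.0 mg/kg, against 0.337 to 7.22 in controls (4.23 ± 0.67, adjusted p = 4.47e-06). Single rats at 0.03 mg/kg reached 19.6 CPM, still below every rat at 2.0. Sds, which breaks serine down, ran from 2.81 to 11.8 CPM at 2.0 mg/kg, against 18.7 to 326 in controls (-3.67 ± 0.74, adjusted p = 0.000123). Both separated the 2.0 rats from the controls without overlap. Slc7a11, the cystine importer that feeds glutathione synthesis, had a median of 4.8 CPM at 2.0 mg/kg, against 0.0587 in controls (5.43 ± 0.92), but ME086 (0.147) and ME089 (0.0552) lay inside the control range of 0 to 0.275. Without ME086, ME089 and ME092 the fold change of Slc7a11 was 6.2. At 0.03, 0.12 and 0.5 mg/kg the fold changes of Slc7a11 were 1.97, 2.69 and 2.21 and did not pass (adjusted p = 0.667, 0.257 and 0.36). At these doses 2 of 8, 4 of 8 and 2 of 7 rats lay above every control for it. Gpx2 ran from 2.88 to 21.1 CPM at 2.0 mg/kg, against 0.156 to 1.1 in controls (4.75 ± 0.53, adjusted p = 8.75e-09). Its fold changes of 1.02, 1.7 and 1.75 at 0.03, 0.12 and 0.5 mg/kg did not pass (adjusted p = 0.663, 0.148 and 0.102).

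Mki67 ran from 9.09 to 28.3 CPM at 2.0 mg/kg, against 1.75 to 7.97 in controls (1.88 ± 0.33, adjusted p = 1.74e-05). At 0.12 mg/kg 2 of 8 rats and at 0.5 mg/kg 2 of 7 rats exceeded every control. Abcc3, the exporter of bile conjugates on the blood side of the hepatocyte, ran from 6.75 to 23 CPM at 2.0 mg/kg, against 1.95 to 4.67 in controls (2.4 ± 0.2, adjusted p = 2.32e-11). ME086 was again the lowest. For Abcc3 3 of 8 rats at 0.12 mg/kg and 2 of 7 at 0.5 exceeded every control. Ccng1, a p53 target, ran from 40.2 to 63.4 CPM at 2.0 mg/kg, against 25.2 to 30.3 in controls (0.94 ± 0.12, adjusted p = 5.32e-08). At 0.5 mg/kg 6 of 7 rats lay above every control for Ccng1, with a fold change of 0.36 ± 0.12 that did not pass (adjusted p = 0.0881). For Ccng1 5 of 8 rats at 0.12 mg/kg lay above every control and 1 below, and 3 of 8 at 0.03 lay above. Dbp, a clock-controlled transcription factor of the liver, ran from 4.79 to 11.5 CPM at 2.0 mg/kg, against 2.9 to 4.22 in controls (1.46 ± 0.19, adjusted p = 7.11e-08), with 0.06 ± 0.2 at 0.5.

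Genes of hepatocyte function fell at the top dose in the same way. Slc27a5, the enzyme that primes bile acids for conjugation, ran from 305 to 642 CPM at 2.0 mg/kg, against 675 to 1040 in controls (-0.98 ± 0.12, adjusted p = 2.98e-08), and no rats overlapped. Cyp1a2, a xenobiotic P450, fell by 0.98 on the log2 scale (SE 0.15) and had 6 of 7 rats below every control. Hamp, the iron hormone hepcidin, ran from 191 to 388 CPM at 2.0 mg/kg, against 424 to 1040 in controls (-1.39 ± 0.21, adjusted p = 2.06e-06). Fasn, the fatty acid synthase, fell by 1.78 (SE 0.35), with 5 of 7 rats below every control. Inmt, a methyltransferase of small amines, ran from 14.2 to 50.6 CPM at 2.0 mg/kg, against 93.4 to 168 in controls (-2.08 ± 0.25), and 3 of 7 rats at 0.5 and 5 of 8 rats at each lower dose also lay below every control. Cyp2e1 itself was not called at any dose (-0.08 ± 0.16 at 2.0, adjusted p = 0.731).

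The lists of cell division, electrophile response, acute phase and bile acid genes lay largely in this class, which held 26.6% of all tested genes, and some other lists did not. It took 19 of 21 mitosis genes, 17 of 18 DNA replication genes, 15 of 16 acute phase genes and 7 of 7 hepatocyte markers, of which 6 fell and 1 rose. It also took 16 of 23 genes of the NRF2 and electrophile response, 14 of 19 of bile acid synthesis and transport and 8 of 10 oncofetal markers, but 4 of 15 pericentral hepatocyte genes and 5 of 23 cholesterol synthesis genes. For mitosis the median log2 fold changes were -0.23, -0.05, 0.38 and 1.48 at the 4 doses, and for the NRF2 list -0.06, 0.03, 0.06 and 0.85. Over all tested genes the medians were 0.00, 0.00, 0.01 and 0.02. In the NRF2 list 16 members rose at 2.0 mg/kg, 1 fell (Gstm2) and 1 rose at 0.5 (Aldh1a7). In the acute phase list 15 members fell at 2.0 mg/kg, with medians of 0.00, -0.03, -0.08 and -0.53 at the 4 doses. Of all tested genes 24% rose and 22.5% fell at 2.0.

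Markers of several cell types also moved at 2.0 mg/kg, but only the hepatocyte sum lay clear of the controls in every rat. The 7 hepatocyte markers summed to 108000 to 165000 CPM at 2.0, against 179000 to 205000 in controls. The TMM factors were 1.021 to 1.405 at 2.0 and 0.894 to 0.963 in controls, and a larger factor lowers the CPM of every gene. How much of the fall in hepatocyte and acute phase genes comes from this scaling was not tested. The 10 cholangiocyte markers summed to 40.8 to 104 CPM at 2.0 and 35 to 44.5 in controls, and the 10 stellate and fibroblast markers to 225 to 957 CPM at 2.0 and 225 to 373 in controls. Of 9 cholangiocyte markers tested 7 rose and 1 fell at 2.0, and of 10 stellate and fibroblast markers 6 rose and 1 fell. The cholangiocyte and stellate sums still overlapped those of controls, and so did the sums of further lists. Macrophage markers summed to 286 to 684 CPM at 2.0 and 343 to 645 in controls (2 of 10 rose), and sinusoidal endothelium markers to 151 to 276 CPM at 2.0 and 72.3 to 356 in controls (2 of 7 fell). Red blood cell markers summed to 64.9 to 116 CPM at 2.0 and 104 to 216 in controls (3 of 3 tested fell). Beside these counts, 24% of all tested genes rose and 22.5% fell at 2.0 mg/kg. No marker of the hepatocyte, cholangiocyte and stellate lists was at 0 in every library. In bulk tissue fewer cells of a type and less RNA per cell cannot be told apart, and the part of cell makeup in the top dose genes was not tested.

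Being called at the top dose alone did not mean being at control level below it. Over the 3386 genes the fold change at 0.5 mg/kg was a median 17.6% of that at 2.0 (middle 50% of genes 3.03 to 28.7%), while the dose ratio was 25%. The sorting rule asks for no call at 0.5 and a call between 2.0 and 0.5, so it favours low shares. The gap to 25% is therefore no evidence of a shape. Set against fixed dose curves on log2 CPM, 1974 of these genes were best matched by a graded curve and 1389 by a curve that was flat up to 0.5. More of the 12 curves were graded than flat up to 0.5, so the best match leans to graded. A test for departure from a straight line in dose called 2 of them, and 180 had an unadjusted p under 0.05 in that test. The 14 genes of this class called between 0.5 and 0.03 mg/kg made up 0.413% of it, beside 0.998% of all genes.

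Effects over the whole range were set against proportion to dose. A linear trend in mg/kg was called for 6620 genes (52%), and departure from proportion for 167 (1.31%). Of the genes called at 2.0 mg/kg the effect at 0.5 was a median 28.3% of that at 2.0 (middle 50% 12.4 to 47%), and 32.3% among the 931 genes that changed by at least 1 on the log2 scale. At 0.12 mg/kg the median was 18.5%, where the dose was 6% of the highest, and at 0.03 mg/kg 8%, where it was 1.5%. Each share has the same control mean in both of its parts, so controls that stand apart move all the shares. The contrast of the 0.5 effect with 0.25 times the 2.0 effect called 123 genes (0.966%), 108 of them with more than that share in the direction of the change and 15 with less. All of those 15 had opposite signs at 0.5 and 2.0. That count was 75 without MC007, 41 without MD071, 35 without MD072 and 200 without MD069.

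**Figure D3:**
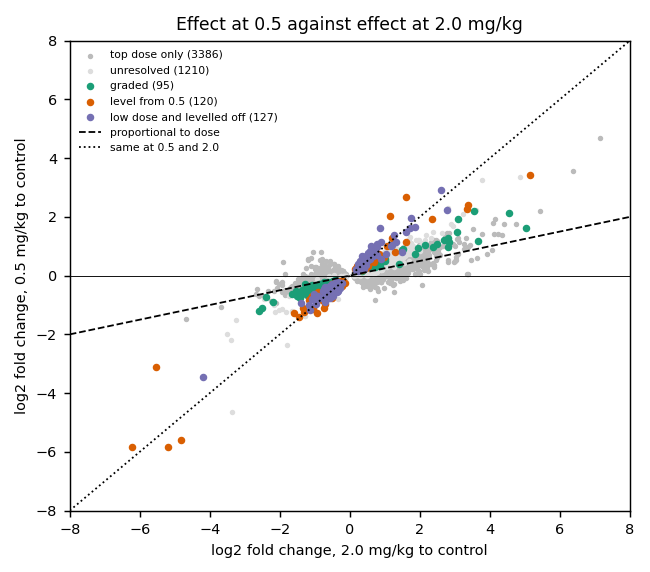
Each point is a gene called over the 4 doses and at 2.0 mg/kg, with its log2 fold change to control at 2.0 (x axis) and 0.5 mg/kg (y axis), coloured by shape class. The dashed line marks an effect in proportion to dose and the dotted line equal effects. The median share of the 2.0 effect reached at 0.5 was 17.6% for top dose only genes, below the 25% of the dashed line, and 98.6% for levelled-off genes. The sorting rule favours a low share in the first class and a high share in the second.

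Among graded genes every rat at 0.5 mg/kg lay outside the control range for some genes, such as Aldh1a7 and Cd24, and not for others, such as Erich5 and Kcnj3. Aldh1a7, an aldehyde dehydrogenase, had medians of 0.219 CPM in controls, 0.111 at 0.03, 0.474 at 0.12, 0.633 at 0.5 and 7.57 at 2.0 mg/kg. All 7 rats at 0.5 and at 2.0 lay above every control, and all rats at 2.0 (3.13 to 11.1) lay above all at 0.5 (0.376 to 1.18). Counts below 2.0 were few: controls ran from 0.0687 to 0.319 CPM, close to the lowest rat at 0.5. At 0.03 mg/kg 4 of 8 rats lay below every control. The log2 fold changes were 1.62 ± 0.41 at 0.5 (adjusted p = 0.0214) and 5.04 ± 0.34 at 2.0 (adjusted p = 8.94e-14). Cd24, a surface glycoprotein of progenitor and tumour cells, had medians of 1.22, 1.2, 1.62, 2.56 and 8.86 CPM from control to 2.0 mg/kg, and its 7 rats at 0.5 also lay above every control (1.15 ± 0.23 at 0.5 and 2.83 ± 0.22 at 2.0). Erich5, a glutamate-rich protein, had medians of 1.02, 1.87, 1.42, 2.51 and 13.9 CPM (1.18 ± 0.28 at 0.5, adjusted p = 0.014; 3.65 ± 0.26 at 2.0). For it only 4 of 7 rats at 0.5 exceeded the controls.

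Among graded genes that fell, Dusp1, the phosphatase that ends MAP kinase signals, had medians of 342, 335, 206, 160 and 49.2 CPM from control to 2.0 mg/kg. It was called from 0.12 mg/kg on, by -0.84 ± 0.22 at 0.12 (adjusted p = 0.0348), -1.1 ± 0.23 at 0.5 and -2.52 ± 0.24 at 2.0, and its 2.0 rats (37.5 to 122) lay below every control (182 to 510). Sez6, a membrane protein known from neurons, had medians of 120, 83.1, 73.7, 63.1 and 17 CPM (-0.73 ± 0.2 at 0.5 and -2.39 ± 0.22 at 2.0). Kcnj3, a potassium channel subunit, had medians of 1.28, 1.0, 0.877, 0.611 and 0.326 CPM and no rat at 0.5 below every control. The 95 graded genes reached a median 46.3% of their 2.0 effect at 0.5 mg/kg, a share shaped by the sorting rule, and 20 of them were called at 0.12. Abcb4, the phospholipid pump of the bile canaliculus, was the graded member of the bile acid list and rose by 0.42 at 0.5 and 0.85 at 2.0.

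**Figure D4:**
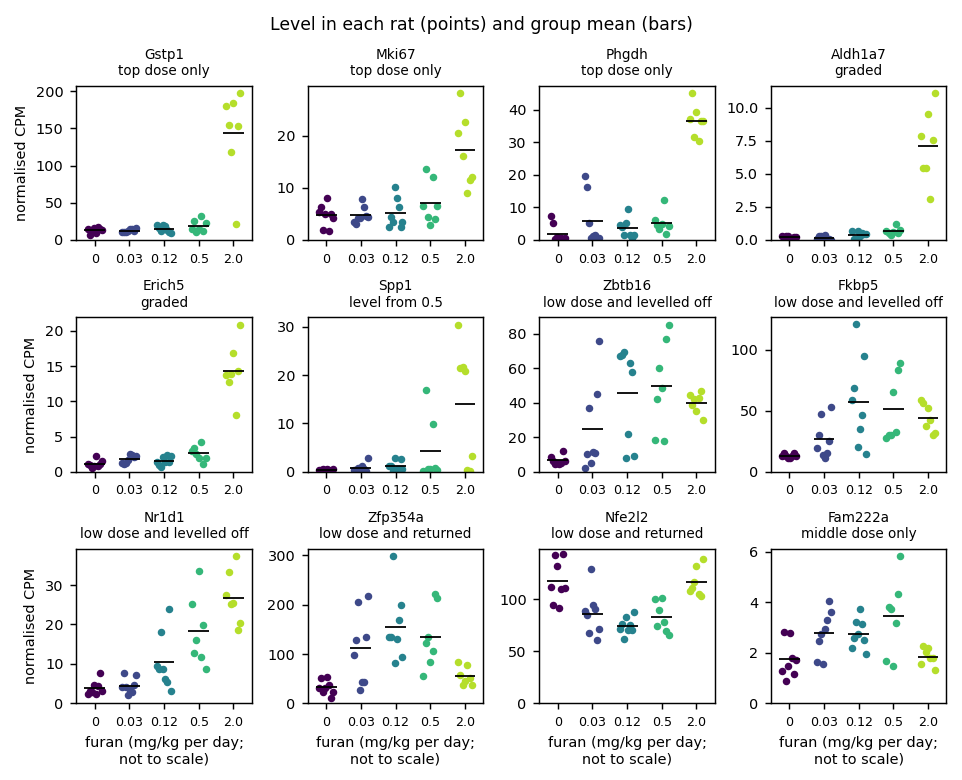
Points give normalised CPM of 12 genes in each rat, by dose in mg/kg per day (not to scale), and bars the group mean. Gstp1 at 2.0 mg/kg shows ME086 at 20.9 CPM below its group mates, Spp1 at 0.5 mg/kg rests on MD063 and MD069, and Zbtb16 and Fkbp5 show tight controls beside scattered dosed rats.

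Some genes that changed by 0.5 mg/kg rested on few rats. Spp1, osteopontin, a matrix protein of bile duct and inflammatory cells, stood at 16.9 CPM in MD063 and 9.82 in MD069, while the other rats at 0.5 mg/kg had 0.188 to 0.836 and controls 0.174 to 0.625. At 2.0 mg/kg it was 0.44, 0.221 and 3.27 CPM in ME086, ME089 and ME092 and at least 20.8 in the other rats. The fold change of 3.42 ± 0.99 at 0.5 (adjusted p = 0.0473) rested on these 2 rats, and under the alternatives tried it was as low as 0.44 and missed the threshold in 25. Prr32, a proline-rich protein, was more even: all 7 rats at 0.5 (1.39 to 7.33 CPM) and at 2.0 (4.91 to 17.8) lay above every control (0.55 to 1.17), with fold changes of 2.27 ± 0.52 and 3.36 ± 0.5.

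A1bg, a plasma glycoprotein, and Cpa1, a carboxypeptidase known from pancreas, fell at 0.5 mg/kg against controls that differed widely. A1bg was 0.188 to 0.713 CPM at 0.5 and 0.0892 to 0.705 at 2.0, against 0.404 to 60.6 in controls, where MC011 and MC012 had 0.404 and 0.472. The 0.03 and 0.12 groups were as mixed, from 0.572 to 142 and from 0.212 to 28.9 CPM. Cpa1 was high in the same controls, from 0 to 6.49 CPM. Bhlhe40, a repressor in the clock, was steadier, with medians of 84.9, 66.7, 46.3, 25 and 25.2 CPM from control to 2.0 mg/kg. It fell by 1.26 at 0.5 (SE 0.25, adjusted p = 0.00383) and by 1.6 at 2.0 (SE 0.26), and the 2.0 minus 0.5 difference of -0.34 ± 0.26 was not called.

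Genes that moved at the low doses and then levelled off included targets of the glucocorticoid receptor. Zbtb16, a zinc finger repressor induced by glucocorticoids, had medians of 5.81 CPM in controls, 11.1 at 0.03, 60.2 at 0.12, 48.4 at 0.5 and 42.3 at 2.0 mg/kg. Rats at 0.12 ran from 7.91 to 69.6 CPM and controls from 4.3 to 12.1, where MB045 (7.91) and MB052 (9.1) lay inside the control range. Every rat at 0.5 and 2.0 lay above every control, and at 0.03 it was 3 of 8. The fold changes were 1.91 ± 0.54, 2.79 ± 0.54, 2.92 ± 0.55 and 2.6 ± 0.54 at the 4 doses, with adjusted p of 0.184, 0.00354, 0.00218 and 0.000192.

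Fkbp5, the co-chaperone that dampens the glucocorticoid receptor, ran from 11.5 to 121 CPM in dosed rats and from 11.2 to 15.3 in controls. Its fold changes were 1.05 ± 0.36, 2.13 ± 0.36, 1.97 ± 0.37 and 1.76 ± 0.37 at the 4 doses, called from 0.12 on (adjusted p = 0.00107 at 0.12). MB045 (20.3) and MB052 (14.5) were again the lowest at 0.12. Klf13, a Kruppel-like factor, was called at all 4 doses, by 0.92, 1.08, 0.98 and 0.77 (adjusted p = 0.0466, 0.000545, 0.00147 and 0.000381), and the call at 0.03 was lost in 25 of the 45 alternatives. Slc25a32, the mitochondrial folate carrier, had medians of 14.8, 33.0, 46.9, 44.2 and 29 CPM from control to 2.0 (1.53 ± 0.34 at 0.12, adjusted p = 0.0119). Mt1m, a metallothionein, had medians of 19.9, 46.7, 72, 69.4 and 98.8 CPM (1.67 ± 0.42 at 0.12), and that call was lost in 9 of the alternatives.

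Nr1d1, the clock repressor REV-ERB alpha, had medians of 3.24, 4.08, 8.65, 16.1 and 25.4 CPM from control to 2.0 mg/kg, with 5 of 8 rats at 0.12 and every rat at 0.5 and 2.0 above every control. The fold changes were 1.4 ± 0.34 at 0.12 (adjusted p = 0.0235, a call lost in 5 of the alternatives), 2.22 ± 0.34 at 0.5 and 2.77 ± 0.34 at 2.0, and the 2.0 minus 0.5 difference of 0.55 ± 0.32 was not called. Among genes that fell, Vgll4, a cofactor that opposes YAP, had all 7 rats at 0.5 (3.94 to 5.62 CPM) and at 2.0 (3.54 to 6.38) below every control (7.48 to 17.7). At 0.12 it was 7 of 8, the exception being MB052 (10.4), and the fold changes were -1.03 ± 0.23, -1.18 ± 0.24 and -1.13 ± 0.23 at 0.12, 0.5 and 2.0. Kcnk5, a potassium channel of epithelia, was called at 0.03 (-1.11 ± 0.23, adjusted p = 0.05 after rounding), with 6 of 8 rats below every control, and the call was lost in 35 of the alternatives. S1pr2, a sphingosine phosphate receptor, fell by 1.05 at 0.12 (SE 0.24, adjusted p = 0.0138).

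Genes that moved at the low doses and returned included parts of the secretory pathway and lipid control. Zfp354a, a KRAB zinc finger protein, had medians of 31.2 CPM in controls, 112 at 0.03, 135 at 0.12, 123 at 0.5 and 52.2 at 2.0 mg/kg. All 8 rats at 0.12 (82.2 to 298) and all 7 at 0.5 (56.6 to 221) lay above every control (10.4 to 53.7), and 3 of 7 at 2.0. It rose by 1.79 ± 0.38 at 0.03 (adjusted p = 0.05 after rounding, lost in 36 of the alternatives), 2.25 ± 0.38 at 0.12 and 2.04 ± 0.39 at 0.5, and the 2.0 minus 0.5 difference was -1.26 ± 0.39 (adjusted p = 0.0127). Lpin1, a phosphatidate phosphatase that also coactivates fat oxidation genes, had medians of 115, 417, 394, 311 and 186 CPM from control to 2.0. All 8 rats at 0.12 and 0 of 7 at 2.0 lay above every control (65.9 to 282). Its call at 0.03, 1.55 ± 0.32, was lost in 33 of the alternatives. Il6r, the interleukin 6 receptor of hepatocytes, had medians of 109, 174, 232, 200 and 132 CPM, with all 8 rats at 0.12 above every control (1.06 ± 0.18, adjusted p = 0.00101).

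Eif2ak3, the ER stress kinase PERK, rose by 0.41 ± 0.08 at 0.03 (adjusted p = 0.0469, lost in 28 of the alternatives), 0.44 ± 0.08 at 0.12 and 0.52 ± 0.09 at 0.5, and was 0.06 ± 0.09 at 2.0. Dnajb9, an ER co-chaperone, had medians of 32.3, 46.2, 53.7, 63 and 34.8 CPM from control to 2.0 and fell by 0.81 between 2.0 and 0.5 (SE 0.17, adjusted p = 0.000398). Hsp90b1 changed little, with medians of 721, 826, 870, 832 and 652 CPM and a fold change of 0.28 ± 0.08 at 0.12 (adjusted p = 0.0491) whose call was lost in 30 of the alternatives. The other way round, Nfe2l2 had medians of 111, 87.1, 73.8, 77.9 and 111 CPM. All 8 rats at 0.12 (61.5 to 88.1) lay below every control (91.7 to 144), and 0 of 7 at 2.0 did. The fold changes of Nfe2l2 were -0.65 ± 0.12 at 0.12 (adjusted p = 0.00173), -0.5 ± 0.12 at 0.5 and -0.01 ± 0.12 at 2.0, with 0.49 ± 0.12 between 2.0 and 0.5 (adjusted p = 0.00253). At 2.0 mg/kg, where 16 of the 23 genes of the NRF2 list rose, Nfe2l2 mRNA was not called against control.

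Zfp608, a zinc finger protein, also returned: it was lower in 7 of 8 rats at 0.12 and 7 of 7 at 0.5 than in every control, with fold changes of -0.84 ± 0.21 and -0.93 ± 0.21, and -0.27 ± 0.2 at 2.0. Its call at 0.12 was lost in 7 of the alternatives. Lmnb1, the nuclear lamin B1 and the gene that reversed, fell by 0.48 at 0.12 (SE 0.13, adjusted p = 0.0412) and rose by 0.53 ± 0.13 at 2.0 (adjusted p = 0.000803), with 6 of 7 rats above every control. Its call at 0.12 was lost in 14 of the alternatives. Of the genes called at 0.5 mg/kg alone, Fam222a, a protein that gathers in amyloid plaques of the brain, had medians of 1.61, 2.85, 2.67, 3.76 and 1.82 CPM from control to 2.0 (0.99 ± 0.24 at 0.5, adjusted p = 0.0171). Cry1, a clock repressor, fell by 0.64 at 0.5 (SE 0.17, adjusted p = 0.0276), with 7 of 7 rats at 0.5 and 7 of 8 at 0.12 below every control. The call at 0.5 was lost in 5 of the alternatives. At 0.12 the fold change of Cry1 was -0.47 ± 0.16 and did not pass (adjusted p = 0.129).

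The low dose classes held members of the glucocorticoid and clock lists. Of 20 glucocorticoid-responsive genes 4 levelled off (Klf13, Fkbp5, Zbtb16 and Cdkn1a) and 1 returned (Lpin1), where these classes held 0.998% and 0.542% of all tested genes. The list did not move one way: 5 members rose and 1 fell at 0.12 mg/kg, while 6 rose and 11 fell at 2.0, among them Zfp36 (-1.77) and Tsc22d3 (-1.33). Per1, a fast glucocorticoid and clock gene, was not called at any single dose. Of 17 clock genes 3 changed by 0.5 and levelled (among them Bhlhe40 and Hlf), 2 moved at low dose and levelled off (Nr1d1 and Nr1d2), 1 returned (Cry2), 1 was called at 0.5 alone (Cry1) and 5 at the top dose only, with Per3 at 2.1 and Npas2 at -1.06. In the ATF4 and unfolded protein list 2 of 20 returned (Dnajb9 and Hsp90b1), and at 2.0 mg/kg 4 rose and 10 fell. The p53 list had 7 of 17 members at the top dose only, with Sesn2 lower and the others higher, and 1, Cdkn1a, at the low doses. Of all tested genes 24% rose and 22.5% fell at 2.0 mg/kg, and 1.02% rose and 0.919% fell at 0.12. The top dose only class held 26.6% of them, the class that changed by 0.5 held 0.943% and genes called at 0.5 alone 0.244%. The lists were picked with earlier results of these data known, and the counts are a description.

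The matched promoters were also described by class. Of 12727 tested genes 9255 had a RefSeq window. Either strand of TTTGAA was present in 13 of 19 mitosis promoters (68.4%), 11.9% of tested genes and 18.1% of all 27457 windows. The element TGACNNNGC was in 6 of 20 NRF2 list promoters (30%), 14.8% of tested genes and 12.2% of all windows. The ER stress response element was in 4 of 17 promoters of the ATF4 and unfolded protein list (23.5%), 0.151% of tested genes and 0.0765% of all windows. The E-box CACGTG, which clock proteins bind, was in 2 of 13 clock promoters (15.4%) and 9.32% of tested genes (6.65% of all windows), and ACANNNTGT, the core letters of a glucocorticoid element, in 0 of 17 promoters of the glucocorticoid list and 3.88% of tested genes (6.6% of all windows). By shape class, TTTGAA was in 13.8% of higher and 11.2% of lower top dose only genes, and TGACNNNGC in 13.9% and 16.3%. These matches describe letters in a short window, and the motifs were chosen with the lists in view.

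The low dose classes were also read rat by rat, as the median over class genes of the log2 difference from the control mean. For genes that returned and were higher, the ranges were -0.14 to 0.13 in controls, -0.03 to 0.84 at 0.03 mg/kg, 0.32 to 1.15 at 0.12, 0.26 to 1.0 at 0.5 and 0.04 to 0.37 at 2.0. For genes that levelled off and were higher, the ranges were -0.07 to 0.07 in controls, 0.01 to 0.61 at 0.03, 0.26 to 0.91 at 0.12, 0.36 to 0.81 at 0.5 and 0.44 to 0.6 at 2.0. The 0.03 and 0.12 groups were wide and the controls narrow; the control mean is the zero of this scale and the genes were chosen from the same rats. MB044 was the highest at 0.12 in both classes (1.15 and 0.91) and MB052 the lowest (0.32 and 0.26).

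For top dose only genes that were higher the rat medians were 0.27 to 0.71 at 2.0 mg/kg and -0.05 to 0.1 in controls, and at 0.5 they were 0.21 in both MD063 and MD069 and at most 0.09 in the others. ME086 had 0.27, ME089 0.47 and ME092 0.52, and the other rats at 2.0 at least 0.6. For graded genes that were higher the rats at 2.0 had 1.0 to 1.57, against 0.53 to 0.81 at 0.5, with ME086 the lowest at 2.0. Without MD063 and MD069 the graded class held 33 genes and the count at 2.0 mg/kg and the top dose only class stayed within 1.5 times. Without ME086, ME089 and ME092 the graded class held 206 genes, and the low dose classes stayed within 1.5 times.

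**Figure D5:**
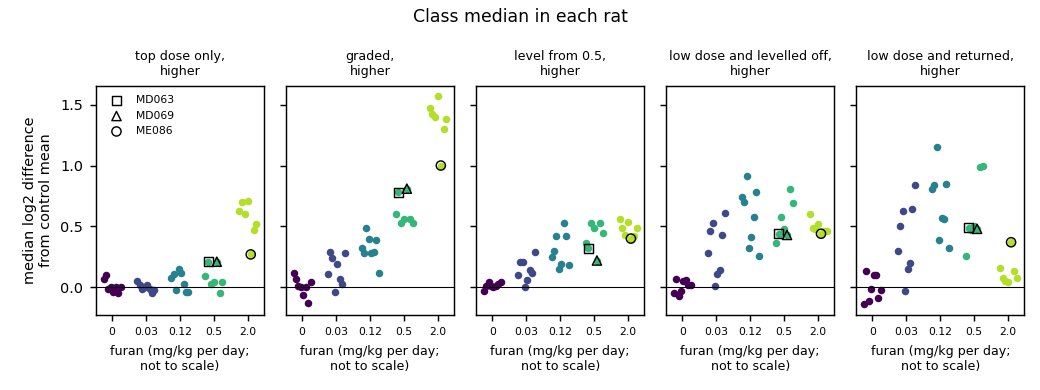
Each point is a rat, placed by the median log2 difference from the control mean over the genes of a class that were higher, by dose in mg/kg per day (not to scale). MD063 and MD069 lead the 0.5 group for top dose only and graded genes, ME086 is the lowest 2.0 rat there, and for returned genes ME086 is the highest at 2.0 (0.37).

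The low dose patterns all rest on the same 8 control rats. Against the 0.03 group in place of the controls, 1 of the 69 returned genes and 18 of the 127 that levelled off were called at 0.5 mg/kg (1.45% and 14.2%, beside 0.998% of all genes). Between 2.0 and 0.12 mg/kg, which leaves the controls out, 68 of the 69 returned genes were called (beside 39.6% of all genes), a share the sorting rule fixes. A shift shared by the dosed low groups and controls that stand apart cannot be told apart with 1 control group. No label gives feeding or the hour of death, and their part in the clock and glucocorticoid genes was not tested.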

How the data were processed

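Liver RNA of 38 rats was measured as read counts per gene. Per the submitters' processing notes the authors used STAR 2.7.1a, featureCounts 2.0.0 and DESeq2 1.26.0 with genome build Rnor 6.0, with no strand setting named. The deposited counts are raw, in 2 runs per rat (76 of 172 runs in the 2 count tables), and were summed per rat. The authors' deposited table gives a signed fold change, in which a decrease is a negative reciprocal, and an adjusted p-value per dose, of which only the called counts were copied. The tables of the 3-methylfuran experiment were not used.

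Genes were filtered with filterByExpr (minimum count 10), scaled by TMM and tested with edgeR 4.0.16 quasi-likelihood tests (R 4.3.3) on the 5 dose groups, with Benjamini-Hochberg adjustment over 12727 genes and a threshold of 0.05. Values per rat are TMM-scaled CPM, and fold changes are log2 with standard errors. Fixed dose curves were compared by residual sum of squares on log2 CPM. The steps were tested on simulated counts. Alternatives were RLE scaling, no filter, DESeq2 1.42.0, limma 3.58.1 voom, run 1 alone, each rat left out, log10 dose, an adjusted p under 0.01, a 1.5-fold minimum and classes by best curve; 2 sets of rats left out and the 0.03 group as comparison were added after the data were seen.

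The members, lists and tests were chosen with earlier results of these data known. Genes were named by a rule: in each class and direction the 6 genes (3 in classes under 60) with the largest absolute log2 fold change less 2 standard errors and 1 CPM or more on average in the highest group, 16 followed genes, and up to 3 members of each list. The text names a part of these. Cdkn1a, Cry2, Cyp2c11, Dnajb9, Eif2ak3, Gstm2, Hlf, Hsp90b1, Il6r, Klf13, Nr1d1, Nr1d2, Sesn2, Srebf1 and Tsc22d3 were named after their values were seen. Promoter sequence is RefSeq's on GRCr8, a later build than that of the reads. It was matched by Ensembl gene ID, or by symbol where no ID matched.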

Additional observations from a re-analysis of the deposited data

Results flagged for a closer look

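Values that lay far from the rest of their group by the gap to the nearest rat were looked for in 305 groups of 7 or 8 values, and 16 were found. Chance alone gives about 1 in 20 groups. Of these values 4 belonged to ME086 and 4 to MB052, 2 to the control MC004 and 1 each to MA026, MC009, MC011, MD062, MD063 and MD069.

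At 2.0 mg/kg ME086 had 20.9 CPM of Gstp1, 6.75 of Abcc3 and 4.79 of Dbp, each the lowest of its group, and a class median of 0.37 over the higher returned genes, the highest of its group. At 0.5 mg/kg MD069 had 1.66 CPM of Slc7a11, MD062 had 365.0 CPM of Hamp, and MD063 had -0.47 over the lower graded genes.

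At 0.12 mg/kg MB052 had 10.4 CPM of Vgll4 and 2.07 of Ppp1r3g, a glycogen-targeting phosphatase subunit, and lay near control level with -0.05 over the lower graded genes and -0.01 over the lower genes that changed by 0.5. At 0.03 mg/kg MA026 had 7.34 CPM of Prr32.

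Among controls MC004 had 0.275 CPM of Slc7a11 and 0.344 of Fam83f, MC009 had 3.05 of Spsb4 and MC011 had 10.5 of Per1.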

How the results depend on the processing

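Of 2290 values of 51 named genes under the alternatives, 2115 kept direction and side of the threshold, 173 kept direction and missed it, and 2 changed sign: Cyp2e1 at 2.0 mg/kg was 0.00 without the control MC004 and 0.01 without ME083, beside -0.08, with -0.24 the lowest without any 1 rat. The causes of the changes below were not tested. The counts for the 4 doses together, for 2.0 mg/kg and for the linear trend stayed within 1.5 times under every alternative run. Without the filter on low counts 1 gene was called at 0.03, 151 at 0.12, 249 at 0.5, 4 between 0.12 and 0.03 and 99 for the mean low dose, with 44 graded and 38 returned genes, and 58.4% of calls at 2.0 were higher beside 51.6%. With limma voom 0 genes were called at 0.03 and 68 for the 0.5 effect against 0.25 of the 2.0 effect. With run 1 alone 2 were called at 0.03 and 3 between 0.12 and 0.03, and 19 at 0.5 alone. With DESeq2 49 were called at 0.03, 31 between 0.12 and 0.03, 318 for the mean low dose and 225 for the 0.25 contrast. At an adjusted p under 0.01 the calls were 0 at 0.03, 64 at 0.12, 103 at 0.5, 0 between 0.12 and 0.03, 2583 between 2.0 and 0.5, 30 for the mean low dose, 62 for departure and 23 for the 0.25 contrast, and the classes held 10 graded, 46 level from 0.5, 30 levelled off, 15 returned and 8 middle genes. With a 1.5-fold minimum they held 1069 top dose only, 26 graded, 48 level from 0.5, 41 levelled off, 26 returned, 15 middle and 4464 unresolved genes. By best-matching curve they held 1533 top dose only, 3114 graded, 65 level from 0.5, about 5.2e+02 levelled off, 432 returned and 20 middle genes, so the split between top dose only and graded depends on the rule. On log10 dose 1304 genes departed from the trend. Without MD063 and MD069 the counts were 0 at 0.03, 211 for the 0.25 contrast, 33 graded and 62 middle. Without ME086, ME089 and ME092 they were 0 at 0.03, 206 graded and 49 middle. With the 0.03 group in place of controls 127 genes were called at 0.5. Leaving out 1 rat at a time gave 0 to 62 genes at 0.03, 105 to 379 at 0.12, 261 to 484 at 0.5, 0 to 43 between 0.12 and 0.03, 70 to 289 for the mean low dose, 35 to 200 for the 0.25 contrast, 46 to 168 graded, 73 to 170 level from 0.5, 64 to 175 levelled off, 28 to 114 returned and 12 to 66 middle genes. No paired analysis was possible because each rat has a number of its own and no number is shared between groups.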

Other observations

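Matrix genes rose at 2.0 mg/kg with wide scatter between rats. Of 32 extracellular matrix genes 21 rose and 1 fell at 2.0, beside 24% and 22.5% of all tested genes, with medians of 0.17, 0.2, 0.28 and 0.86 at the 4 doses. Col1a1, the main fibrillar collagen chain, ran from 9.01 to 186 CPM at 2.0 mg/kg, against 4.92 to 19.5 in controls (3.09 ± 0.64, adjusted p = 0.00018), but ME086, ME089 and ME092 lay inside the control range and the other 4 rats above it. Also above every control lay 2 of 8 rats at 0.03, 4 of 8 at 0.12 and 2 of 7 at 0.5 mg/kg, the last being MD063 (91 CPM) and MD069 (36.2 CPM). Without ME086, ME089 and ME092 the fold change of Col1a1 at 2.0 was 3.83, and 28 of the 32 matrix genes rose and 1 fell. Fn1, the plasma fibronectin gene of hepatocytes, fell by 0.31 on the log2 scale at 2.0 mg/kg.

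Many fatty acid synthesis and drug-metabolising P450 genes, and fewer cholesterol synthesis genes, fell at the top dose, where 22.5% of all tested genes fell. Of 13 fatty acid synthesis genes 11 fell at 2.0 and 8 were in the top dose only class, among them Thrsp (-1.71), a lipogenic nuclear protein, and Srebf1 (-1.32), the lipogenic transcription factor. In the cholesterol list 10 of 23 fell at 2.0 and 12 were not called over the 4 doses together, and Stard4, a sterol carrier, was already lower at 0.5 mg/kg (-0.56, adjusted p = 0.0228). Of 22 xenobiotic P450 genes 13 fell and 3 rose at 2.0, with Cyp2c11, the male-specific liver P450, at -1.28. Cyp3a62 was graded, with 0.73 at 0.5 and 1.86 at 2.0.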
